A study of Rattus norvegicus with 8 samples.

Results

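The cyclin-dependent kinase (CDK) inhibitor p21 and 7 related genes were followed in rat liver before and after partial hepatectomy (PHx), the surgical removal of 70% of the liver. The set held Cdkn1a (p21), Cdkn1b (p27), Ccng1, Mdm2, Gadd45a, Sesn1, Phlda3 and Tp53inp1, which is also spelled Trp53inp1. A gene was taken when the platform annotation gave its symbol alone for a probe set, and each of the 8 had 1 such probe set. Bax was on the list of 10 names too, but its probe sets were annotated to a further gene as well, so Bax was left out. The 8 are 8 of 18166 genes with a probe set of their own on the array. Cdkn1a was selected on its measured levels on these arrays, because its response to PHx differed between the diets, so its values by diet and by time are a description without a test. The other 7 were listed as known p53 targets or, for Cdkn1b, as a relative of p21. They were chosen with earlier results of these data known, so counts over the 7 set against all genes are descriptions.

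The arrays came from liver of male Sprague-Dawley rats on chronic ethanol feeding or on a pair-fed diet with carbohydrate in place of ethanol. Within each diet, rats were either untreated or given AM21, an oligonucleotide that blocks the microRNA miR-21 through an antisense, locked nucleic acid sequence. Injections of AM21 (7.5 mg/kg, intraperitoneal) were made 72 h before PHx and once more after it, so the liver taken at the operation had seen 1 injection. The groups were ethanol-fed AM21, ethanol-fed untreated, pair-fed AM21 and pair-fed untreated, each at 24 h after PHx and at the operation (0 h). The same animals gave both samples. Each array held RNA pooled from 3 (AM21) or 4 (untreated) animals, so there were 8 arrays, 4 pools and no measure of the spread between animals. For PHx, p-values measure the spread of the change over the 4 pools, which includes any effect of diet or AM21 on that change. No condition had a replicate pool. For diet, AM21 and the interactions, p-values therefore rest on how far the diet and AM21 effects depart from adding up. All these variances were moderated by those of the other genes. AM21 and untreated rats have separate ranges of animal numbers, and whether they were raised and operated together is not stated, so any such difference cannot be told apart from the treatment. No sham-operated rats and no control oligonucleotide were analysed here.

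Values are log2 levels from RMA, a method that corrects the background of Affymetrix arrays, brings the arrays to 1 scale and summarises each probe set. Array medians over all 36685 probe sets lay between 4.11 and 4.23. Precision is limited by there being only 4 pools. Tests covered the 8690 genes whose mean level reached 5, and all 8 genes of the set were among them. Of 10 hepatocyte markers 8 had a probe set, and their summed level lay between 14.76 and 14.77 at 24 h and between 14.75 and 14.79 at 0 h, with albumin (Alb) at 12.29 to 12.38 and 12.31 to 12.42. In bulk tissue, fewer cells of a type and less RNA per cell cannot be told apart.

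The transcription factor p53 accumulates when DNA is damaged or a cell is otherwise stressed, and it switches on genes that stop the cell cycle, repair DNA, adjust metabolism or lead to cell death. Cdkn1a is among its best known targets. Its product p21 binds cyclin and CDK complexes and the replication clamp PCNA, and so restrains entry into S phase. p27 belongs to the same CIP/KIP family but is controlled largely through its turnover as a protein. In the regenerating rodent liver hepatocytes leave quiescence, replicate their DNA within about a day in the rat, and p21 is among the genes known to be induced during that time, also by signals other than p53.

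Promoter windows of the members, from 250 bases before to 50 bases after an annotated RefSeq start (rat build GRCr8), were searched for the p53 decamer, the 10-base consensus that p53 binds as a pair. Windows were found for 7 members, with no entry for Tp53inp1. The windows of Cdkn1a and Ccng1 are shown because each held 2 adjacent decamers without a spacer and with at most 1 mismatch in the 20 bases, which are in capitals. The Cdkn1a window lies on chromosome 20 at chr20:7150682-7150981, plus strand, and the Ccng1 window on chromosome 10 at chr10:25684827-25685126, minus strand.
Cdkn1a: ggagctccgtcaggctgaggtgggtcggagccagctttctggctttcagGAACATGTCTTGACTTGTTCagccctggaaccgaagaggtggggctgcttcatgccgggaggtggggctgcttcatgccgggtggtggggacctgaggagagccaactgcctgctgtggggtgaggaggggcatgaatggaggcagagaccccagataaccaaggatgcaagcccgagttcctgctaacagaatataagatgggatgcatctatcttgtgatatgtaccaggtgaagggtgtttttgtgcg
Ccng1: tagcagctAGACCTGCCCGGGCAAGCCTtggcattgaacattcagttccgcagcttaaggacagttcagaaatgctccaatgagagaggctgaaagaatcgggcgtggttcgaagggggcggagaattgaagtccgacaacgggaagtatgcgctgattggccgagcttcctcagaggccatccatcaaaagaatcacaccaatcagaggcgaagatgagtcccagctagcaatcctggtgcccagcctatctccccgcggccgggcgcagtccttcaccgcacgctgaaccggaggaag
The paired elements ran from base -201 to -182 of Cdkn1a and from -242 to -223 of Ccng1, counted with the annotated start as base 0. Such a pair was found in 24 of 33469 rat promoter windows (0.0717%). A single decamer without mismatch was present in 4 of the 7 windows, including those of Sesn1 (AAGCTTGTTT, chromosome 20) and Gadd45a (GGGCTAGCCC, chromosome 4), against 7.98% of all windows. The windows of Cdkn1b, Mdm2 and Phlda3 held no decamer. The FOXO motif TGTTTAC was present on either strand in 1 of the 7 windows, that of Mdm2, against 3.78% of all windows. The matches describe letters only. No binding was measured, and other windows and introns were not searched.

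The first question was how p21 itself behaved. Cdkn1a was low only in the pair-fed livers before the operation. Its level at 24 h was 8.47 in ethanol-fed AM21 liver, 8.40 in ethanol-fed untreated liver, 9.15 in pair-fed AM21 liver and 8.47 in pair-fed untreated liver. At 0 h it was 8.38 in ethanol-fed AM21 liver, 8.38 in ethanol-fed untreated liver, 6.58 in pair-fed AM21 liver and 5.60 in pair-fed untreated liver. All 4 levels at 24 h were therefore above all 4 at 0 h, but the ethanol-fed arrays differed between the times by only 0.09 with AM21 and 0.02 without. In the pair-fed pools the change was 2.57 with AM21 (5.94-fold) and 2.86 without (7.28-fold).

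Set out by diet, the 0 h level of Cdkn1a was higher in ethanol-fed than in pair-fed liver by 1.80 among AM21 pools (3.47-fold) and by 2.78 among untreated pools (6.85-fold). At 24 h the diets differed by -0.68 among AM21 pools and by -0.06 among untreated pools. From lowest to highest the order of the 8 conditions was pair-fed untreated and pair-fed AM21 at 0 h, both ethanol-fed arrays at 0 h, ethanol-fed untreated at 24 h, the pair-fed untreated and ethanol-fed AM21 arrays at 24 h, and pair-fed AM21 at 24 h. With 1 array per condition no neighbours in this order can be told apart by a spread. Over the 4 arrays of a time the mean level was 8.62 ± 0.35 at 24 h and 7.24 ± 1.38 at 0 h (SD, n = 4 arrays).

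**Figure D1:**
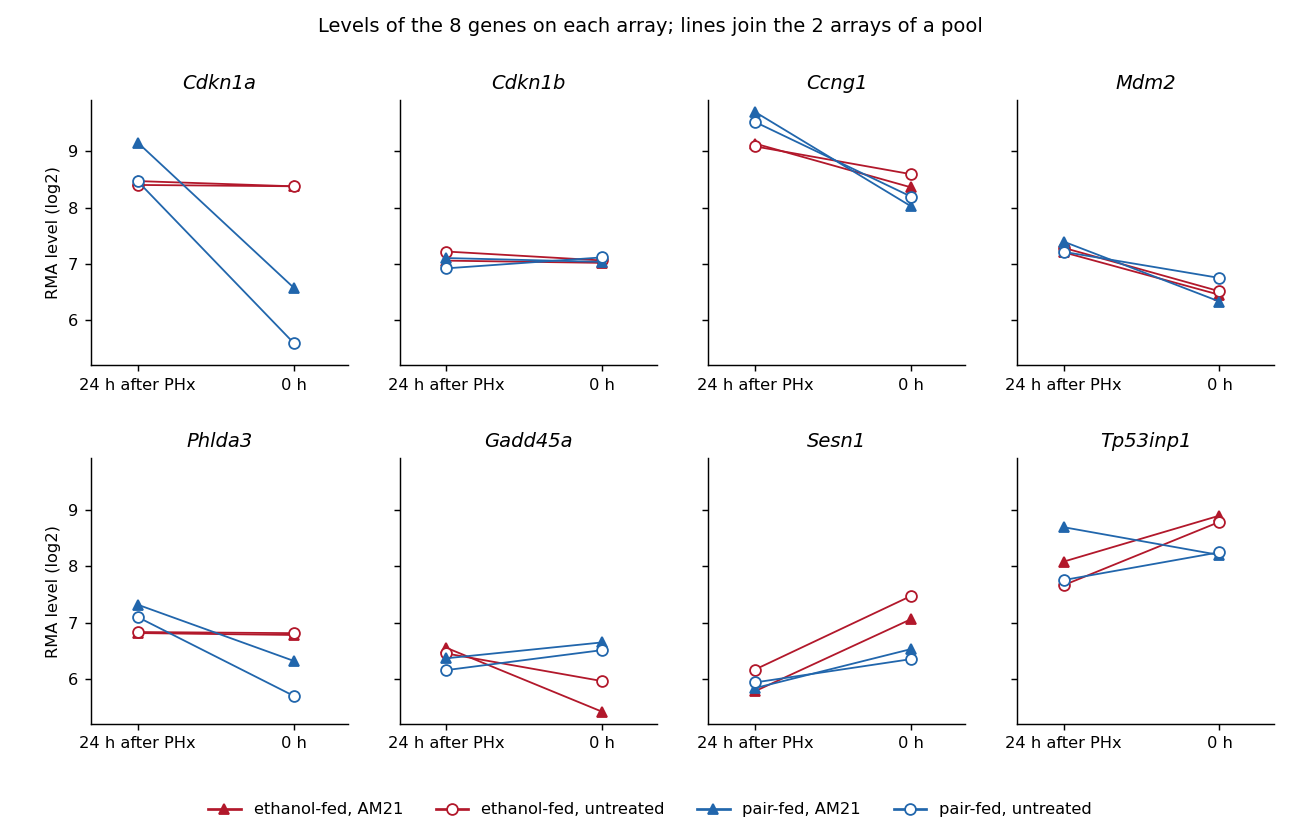
RMA level (log2, vertical axis) of the 8 genes at 24 h after PHx and at 0 h. Each point is 1 array, lines join the 2 arrays of a pool, red marks ethanol-fed and blue pair-fed pools, and filled triangles mark AM21. Cdkn1a and Phlda3 were lowest in the 2 pair-fed arrays at 0 h and nearly level between the times in the ethanol-fed pools, whereas Cdkn1b stayed between 6.92 and 7.22 on all arrays.

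The effect of AM21 on Cdkn1a does not enter the way it was picked, and was tested with limma. With AM21 the level was higher by 0.07 in ethanol-fed and by 0.69 in pair-fed liver at 24 h, and at 0 h it differed by 0.00 in ethanol-fed and 0.98 in pair-fed liver. The fitted difference was 0.38 ± 0.18 at 24 h (adjusted p = 0.556) and 0.49 ± 0.23 at 0 h (adjusted p = 0.998), and the response to PHx differed between AM21 and untreated pools by -0.11 ± 0.21 (adjusted p = 0.943). None of these passed. The AM21 difference of Cdkn1a thus came from the pair-fed arrays, and whether it differs between the diets could not be tested with 1 array per condition. Across the 8690 genes AM21 gave 0 calls at either time (0.0%), with 818 genes at an unadjusted p under 0.05 at 24 h and 377 at 0 h.

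p27, the other CIP/KIP inhibitor of the set, hardly varied. Cdkn1b stood at 7.06, 7.22, 7.11 and 6.92 at 24 h in ethanol-fed AM21, ethanol-fed untreated, pair-fed AM21 and pair-fed untreated liver. In the same order its 0 h levels were 7.02, 7.06, 7.04 and 7.12. Its change with PHx was 0.02 ± 0.09 (adjusted p = 0.907). The sign turned to -0.04 with arrays centred on their median and to -0.02 with quantile normalization. Of 5 other CDK inhibitors listed, 4 had a probe set of their own, and only Cdkn2c (p18, an inhibitor of CDK4 and CDK6) reached the level minimum. Cdkn1c, Cdkn2a and Cdkn2b had mean levels of 4.83, 3.57 and 4.39 over the 8 arrays. Cdkn2c had 7.07, 6.67, 7.98 and 7.05 at 24 h, against 5.07, 5.32, 4.96 and 5.28 at 0 h, in the same order of pools. It rose by 2.03 ± 0.25 with PHx (adjusted p = 0.00278), and its response differed between the diets by -0.72 ± 0.22, which did not pass (adjusted p = 0.261).

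The next comparison asked which of the other members changed with PHx, over 4 matched pools. Ccng1 and Mdm2 rose and Sesn1 fell, while Cdkn1b, Phlda3, Gadd45a and Tp53inp1 did not pass. That is 3 of 7, set against 28.1% of all genes tested, or 15.3% higher and 12.8% lower. Over the 7 genes the median change was 0.25, against 0.01 over all genes tested. The 24 h and 0 h levels of Ccng1, Mdm2 and Phlda3 did not overlap, with 24 h above, a pattern seen in 17.4% of all genes. For Phlda3 the groups all but touched, with a lowest 24 h level of 6.813 and a highest 0 h level of 6.812. The levels of Sesn1 at the 2 times did not overlap either, with 24 h below, as in 13.7% of all genes. Counted by pool, Ccng1, Mdm2 and Phlda3 were higher at 24 h in all 4 pools, as were 26.2% of all genes. In the ethanol-fed pools the rise of Phlda3 was only 0.03 and 0.02. Sesn1 was lower in all 4 pools, as were 22.8% of all genes.

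Markers of other cell types passed in the same comparison, where 15.3% of all genes rose and 12.8% fell. Of 4 tested neutrophil and monocyte markers S100a8 rose by 3.09 ± 0.37 and S100a9 by 2.01 ± 0.32. Of 8 stellate cell and fibroblast markers 2 rose, led by Timp1 (2.61 ± 0.23), and 3 fell, led by Lrat (-0.96 ± 0.17). Of 10 Kupffer cell markers Marco rose (1.06 ± 0.10) and Clec4f and Adgre1 fell (-0.66 ± 0.14 and -0.61 ± 0.11), the call of Clec4f being lost without either AM21 pool. Of 6 endothelial markers Ehd3, Oit3 and Clec4g fell, by 0.73, 0.73 and 0.60 on the log2 scale. The part of these cells in the changes of the 8 genes was not tested.

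Ccng1 encodes cyclin G1, an unusual cyclin that acts in feedback on p53 and Mdm2. Its level at 24 h was 9.14 in ethanol-fed AM21, 9.09 in ethanol-fed untreated, 9.70 in pair-fed AM21 and 9.52 in pair-fed untreated liver. At 0 h the 4 pools stood at 8.36, 8.59, 8.03 and 8.20 in the same order. Every pool was higher at 24 h, and the fitted change was 1.07 ± 0.19 (2.09-fold, adjusted p = 0.00969). The pair-fed pools had the larger changes, 1.67 with AM21 and 1.32 without, beside 0.78 and 0.49 in the ethanol-fed pools. 

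Mdm2 encodes the ubiquitin ligase that marks p53 for degradation and is itself switched on by p53. It had 7.21, 7.29, 7.40 and 7.22 at 24 h, against 6.45, 6.52, 6.34 and 6.75 at 0 h, in ethanol-fed AM21, ethanol-fed untreated, pair-fed AM21 and pair-fed untreated liver. The rise was 0.76 ± 0.11 (1.70-fold, adjusted p = 0.00495). Its 4 changes lay between 0.46 and 1.06, and the changes of the ethanol-fed pools (0.75 and 0.77) lay inside that range.

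Sesn1 encodes sestrin 1, which restrains the growth kinase complex mTORC1 and is a target of both p53 and FOXO factors. Its levels were 5.78, 6.17, 5.84 and 5.94 at 24 h and 7.06, 7.47, 6.53 and 6.35 at 0 h, again in the order ethanol-fed AM21, ethanol-fed untreated, pair-fed AM21 and pair-fed untreated. It fell by 0.92 on the log2 scale (-0.92 ± 0.17, adjusted p = 0.00958). At 24 h the 4 arrays lay close together, whereas at 0 h both ethanol-fed arrays were well above both pair-fed arrays. Leaving out any 1 pool kept the calls of Ccng1, Mdm2 and Sesn1, with adjusted p from 0.00937 to 0.0447 for Ccng1, 0.0113 to 0.0223 for Mdm2 and 0.0135 to 0.0373 for Sesn1.

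Besides Cdkn1b, 3 members did not pass, and their changes differed between the pools. Phlda3, whose product competes with the kinase AKT for membrane lipids, had 6.81, 6.83, 7.32 and 7.10 at 24 h, against 6.78, 6.81, 6.32 and 5.70 at 0 h, in the same order of pools. Its fitted change was 0.61 ± 0.25 (adjusted p = 0.111), made of 1.00 and 1.40 in the pair-fed pools and 0.03 and 0.02 in the ethanol-fed pools. Gadd45a, a growth arrest and DNA damage gene, had 6.55, 6.45, 6.37 and 6.16 at 24 h, against 5.42, 5.96, 6.65 and 6.51 at 0 h. The ethanol-fed pools were higher at 24 h by 1.13 and 0.49 and the pair-fed pools were lower, with changes of -0.28 and -0.35. The fitted change of Gadd45a was 0.25 ± 0.25 (adjusted p = 0.50).

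Tp53inp1, which helps p53 to act in cell death and takes part in autophagy, had 8.08, 7.66, 8.69 and 7.75 at 24 h and 8.89, 8.78, 8.20 and 8.25 at 0 h. Of its 4 pools only the pair-fed AM21 pool was higher at 24 h, by 0.49, and the others differed by -0.82, -1.12 and -0.49. The fitted change of Tp53inp1 was -0.48 ± 0.25 (adjusted p = 0.191), and without the pair-fed AM21 pool it was -0.81 (adjusted p = 0.0210).

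**Figure D2:**
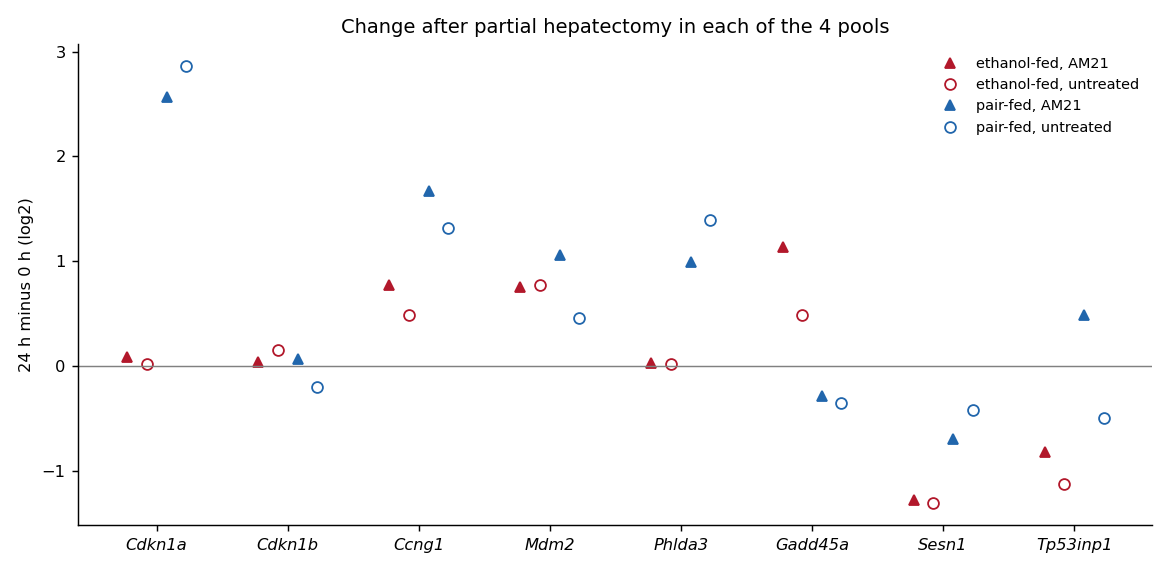
Level at 24 h minus level at 0 h (log2, vertical axis) for each gene in each of the 4 pools, coloured by diet, with filled triangles for AM21. In Cdkn1a the pair-fed pools stand at 2.57 and 2.86 and the ethanol-fed pools at 0.09 and 0.02, Mdm2 is above 0 and Sesn1 below 0 in all 4 pools, and Gadd45a has ethanol-fed pools above and pair-fed pools below 0.

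The comparison of the diets before the operation asked what chronic ethanol feeding did to these genes in resting liver. Ethanol-fed arrays were above pair-fed arrays for 4 of the 7 genes (Ccng1, Sesn1, Phlda3 and Tp53inp1), as for 26.6% of all genes. They were below for Gadd45a, as for 19.6% of all genes. No member passed the test over all genes, where 1.16% of genes were called (0.829% with ethanol-fed liver higher, 0.334% with it lower). At an unadjusted p under 0.05 there were 5 of 7, against 14.0% of all genes. The 7 were chosen with earlier results of these data known, so this count is a description. The median difference over the 7 was 0.37, against 0.02 over all genes tested.

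By gene, the fitted diet difference at 0 h was 0.82 ± 0.19 for Sesn1 (adjusted p = 0.0949), from 0.53 among AM21 and 1.12 among untreated pools. It was 0.78 ± 0.19 for Phlda3 (adjusted p = 0.121), from 0.46 and 1.11, and 0.62 ± 0.16 for Tp53inp1 (adjusted p = 0.125), from 0.70 and 0.54. Ccng1 differed by 0.37 ± 0.15 (adjusted p = 0.349). Gadd45a differed the other way, by -0.89 ± 0.20 (adjusted p = 0.0880), with -1.23 among AM21 and -0.55 among untreated pools. Mdm2 and Cdkn1b differed by -0.06 ± 0.17 and -0.04 ± 0.15. With a prior variance that follows the mean level and is robust to outlying genes, 4 members passed (adjusted p = 0.00999 for Sesn1, 0.0131 for Gadd45a, 0.0138 for Tp53inp1 and 0.0245 for Phlda3), as did 369 of all genes in place of 101.

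No tested marker of another cell type passed for diet at either time. All 10 Kupffer cell and macrophage markers reached the level minimum, and their summed level at 0 h was 11.65 and 11.63 in ethanol-fed liver, against 11.26 and 11.10 in pair-fed liver. At 24 h it was 11.50 and 11.69 in ethanol-fed liver and 11.0 and 11.23 in pair-fed liver. Of 10 neutrophil and monocyte markers 4 reached the minimum, and the summed level of all 10 ran from 8.24 to 8.69 at 0 h. The part of these cells in the values of the 8 genes was not tested.

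At 24 h the order of the diets was in part the other way round. Ccng1 and Phlda3 were lower on both ethanol-fed arrays than on both pair-fed arrays, as in 19.0% of all genes, and Gadd45a was higher, as in 23.4%. The fitted difference was -0.50 ± 0.11 for Ccng1 (adjusted p = 0.198), -0.38 ± 0.12 for Phlda3 (adjusted p = 0.276) and -0.35 ± 0.16 for Tp53inp1 (adjusted p = 0.401). It was 0.24 ± 0.11 for Gadd45a (adjusted p = 0.415), 0.13 ± 0.13 for Cdkn1b, 0.09 ± 0.13 for Sesn1 and -0.06 ± 0.12 for Mdm2. No member passed, nor did any of the 8690 genes in limma (0.0%), where 1248 had an unadjusted p under 0.05. The same fit with the trended, robust prior variance called 74 genes, none of them a member.

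**Figure D3:**
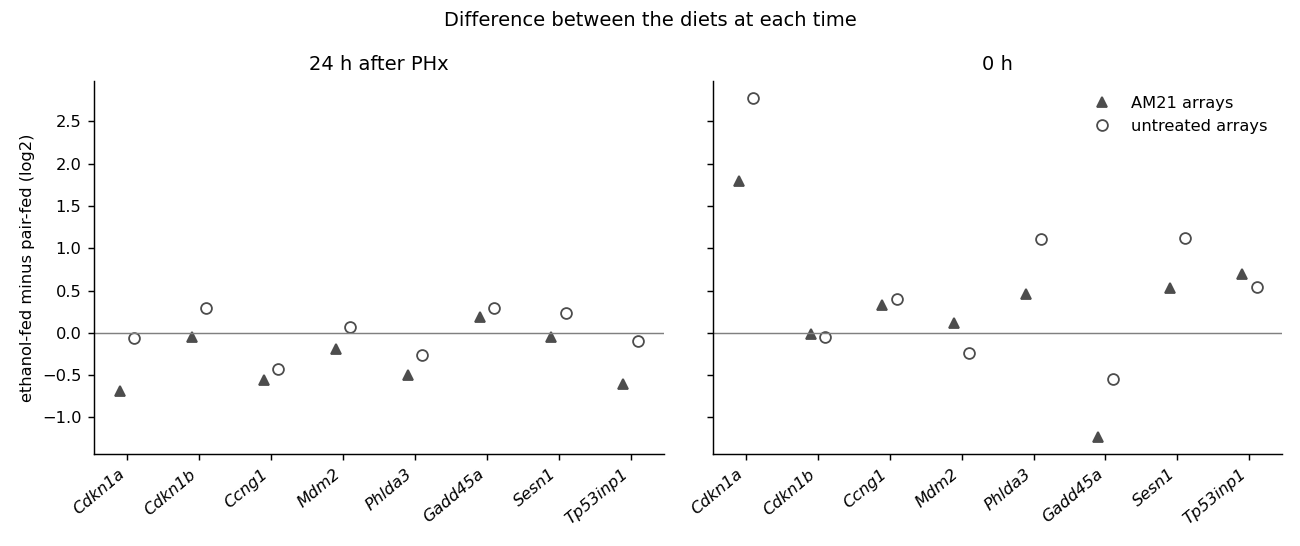
Ethanol-fed minus pair-fed level (log2, vertical axis) of each gene at 24 h after PHx and at 0 h, as the difference between 2 AM21 arrays (filled triangles) and between 2 untreated arrays (open circles). At 0 h Cdkn1a stands at 1.80 and 2.78 and Gadd45a at -1.23 and -0.55, while at 24 h every point lies between -0.68 and 0.30.

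The difference between the diets in the response to PHx is the diet difference at 24 h minus that at 0 h, so it shares all its arrays with the comparisons above. Both ethanol-fed changes were below both pair-fed changes for Ccng1, Sesn1, Phlda3 and Tp53inp1, as in 19.7% of all genes, and above them for Gadd45a, as in 20.3%. Gadd45a was also higher at 24 h in both ethanol-fed and lower in both pair-fed pools, as were 3.98% of all genes, and none of the 7 had the opposite pattern, which 3.05% of all genes had. The fitted difference in response was -1.17 ± 0.21 for Phlda3 (adjusted p = 0.0649), 1.13 ± 0.22 for Gadd45a (adjusted p = 0.0892), -0.86 ± 0.20 for Ccng1 (adjusted p = 0.132), -0.97 ± 0.23 for Tp53inp1 (adjusted p = 0.147) and -0.74 ± 0.20 for Sesn1 (adjusted p = 0.208). For Mdm2 and Cdkn1b it was 0.00 ± 0.22 and 0.16 ± 0.21. None of the 7 passed, where 0.529% of all genes did (0.069% with a larger and 0.46% with a smaller value in ethanol-fed pools). At an unadjusted p under 0.05 there were 5 of 7, against 10.9% of all genes, again a description of genes chosen with earlier results known. Cdkn1a, picked for this contrast, differed by -2.66.

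AM21 changed none of the 8 genes past the threshold at either time. The smallest unadjusted p was that of Tp53inp1 at 24 h, which was above untreated by 0.42 in ethanol-fed and by 0.94 in pair-fed liver (fitted 0.68 ± 0.16, adjusted p = 0.442). At 0 h Tp53inp1 differed by 0.11 in ethanol-fed and by -0.05 in pair-fed liver (0.03 ± 0.16, adjusted p = 0.998). Its response to PHx differed with AM21 by 0.65 ± 0.23 (adjusted p = 0.645). At 24 h both AM21 arrays were above both untreated arrays for Tp53inp1 and Cdkn1a, as for 9.08% of all genes, and below them for Sesn1, as for 26.2%. For Cdkn1a the groups all but touched, with 8.471 in ethanol-fed AM21 and 8.467 in pair-fed untreated liver. The summed level of the 10 neutrophil and monocyte markers at 24 h was 9.19 and 8.56 with AM21, against 9.92 and 9.71 untreated, in ethanol-fed and pair-fed liver, so the AM21 arrays were lower. None of the 4 tested markers passed for AM21, with a median difference of -1.16. The part of these cells in the AM21 values of Cdkn1a and Tp53inp1 was not tested. The interaction of PHx with AM21 was called for 0 of 8690 genes in limma, with 604 at an unadjusted p under 0.05, and for 0 with the trended, robust prior variance.

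Phlda3 was the gene whose pattern over the 8 arrays was most like that of Cdkn1a, out of 1736 genes searched (Pearson r = 0.969). These were tested genes with a range of at least 1 whose symbol did not start with LOC or RGD or end in -ps. The arrays share animals between the times and 1 normalization, so r is a description. Next came Mapkapk2, a kinase downstream of p38 (r = 0.965), Cbs, cystathionine beta-synthase of the transsulfuration pathway (r = 0.952), Chst9, a sulfotransferase (r = 0.949), and Tmem97, the sigma-2 receptor (r = 0.943). All 5 had their 2 lowest levels on the pair-fed arrays at 0 h. Mapkapk2, for example, had 7.35 and 6.82 there, and between 7.63 and 8.06 on the other 6 arrays. Cdkn1a has its own 2 lowest levels on those 2 pair-fed arrays, so picking genes by r with it favours genes that share them. Among the members themselves r with Cdkn1a was 0.763 for Ccng1, 0.521 for Mdm2, 0.132 for Tp53inp1, -0.087 for Cdkn1b, -0.132 for Sesn1 and -0.383 for Gadd45a.

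**Figure D4:**
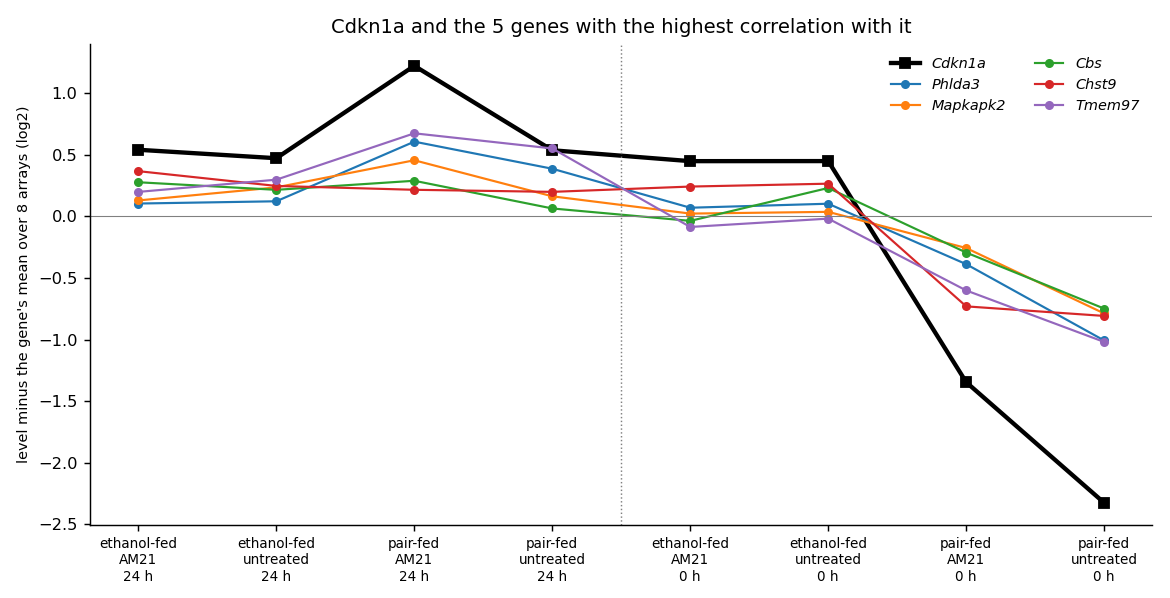
Level of Cdkn1a (black squares) and of the 5 genes with the highest Pearson correlation with it, each minus its own mean over the 8 arrays (log2, vertical axis), on the 8 arrays (horizontal axis). All 6 lines are lowest on the pair-fed untreated array at 0 h, and Cdkn1a, whose own level ran from 5.60 to 9.15, has the widest range. The 5 genes were picked for likeness to Cdkn1a among the 1736 genes searched, which favours a shared low point.

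The wider set of p53 targets, as known from human and mouse work, was listed by role, also with earlier results of these data known. Of 50 names 41 had a probe set and 32 reached the level minimum. With PHx 8 rose and 7 fell (28.1% of all genes were called), and 17 did not pass. The median change of the 32 was -0.03, against 0.01 over all genes tested. Leaving out single pools mattered here: 7 of the 15 calls held whichever pool was left out, namely Gadd45b, Pcna, Pidd1, Pltp, Siva1, Tnfrsf10b and Xpc. The other calls were lost without at least 1 pool, and the number kept was 10 with either ethanol-fed pool omitted, 9 when the pair-fed untreated pool was omitted and 8 when its AM21 counterpart was.

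In the cell death group 4 of 11 rose and 2 fell, where 15.3% of all genes rose and 12.8% fell. Siva1, an adaptor of death receptors, rose by 1.15 ± 0.17 and Tnfrsf10b, a TRAIL receptor, by 0.79 ± 0.12. Pidd1, a scaffold that activates caspase 2, rose by 0.56 ± 0.11, and the death receptor Fas by 0.65 ± 0.18 (adjusted p from 0.00478 for Tnfrsf10b to 0.0361 for Fas). The falls were in Casp6 (-0.37 ± 0.08) and Triap1 (-0.34 ± 0.09), both named after their values were seen. In the growth arrest group 1 of 6 rose, Cdc42se1 (0.95 ± 0.21), which is near the share among all genes.

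In the DNA repair group 3 of 8 rose and 2 fell, where 15.3% of all genes rose and 12.8% fell. Pcna, the replication clamp to which p21 binds, rose by 2.11 ± 0.18 and Gadd45b, a relative of Gadd45a, by 1.06 ± 0.12, while the translesion polymerase Polh rose by 0.80 ± 0.17. Xpc, which recognises damage in nucleotide excision repair, fell by 0.98 on the log2 scale (-0.98 ± 0.17, adjusted p = 0.00791), and so did Ercc5 (-0.47 ± 0.11), named after its value was seen. At 0 h Xpc stood at 7.13 and 7.30 in ethanol-fed liver, against 6.39 and 6.19 in pair-fed liver (difference 0.93, adjusted p = 0.0501). In the metabolism and redox group 3 of 7 fell, where 12.8% of all genes did. They were Pltp (-0.77 ± 0.10), Gls2, the liver glutaminase (-0.64 ± 0.16), and Sat1 (-0.36 ± 0.09). None of the 32 passed in any diet or AM21 comparison. Of the 32, 10 had an unadjusted p under 0.05 for the diet at 24 h and 11 at 0 h, against 14.4% and 14.0% of all genes. For the response to PHx by diet there were 9, against 10.9% of all genes. These counts describe genes chosen with earlier results known. For AM21 there were 4 at 24 h, 2 at 0 h and 3 for the response to PHx by AM21. That is near the share among all genes, which was 9.41%, 4.34% and 6.95%.

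**Figure D5:**
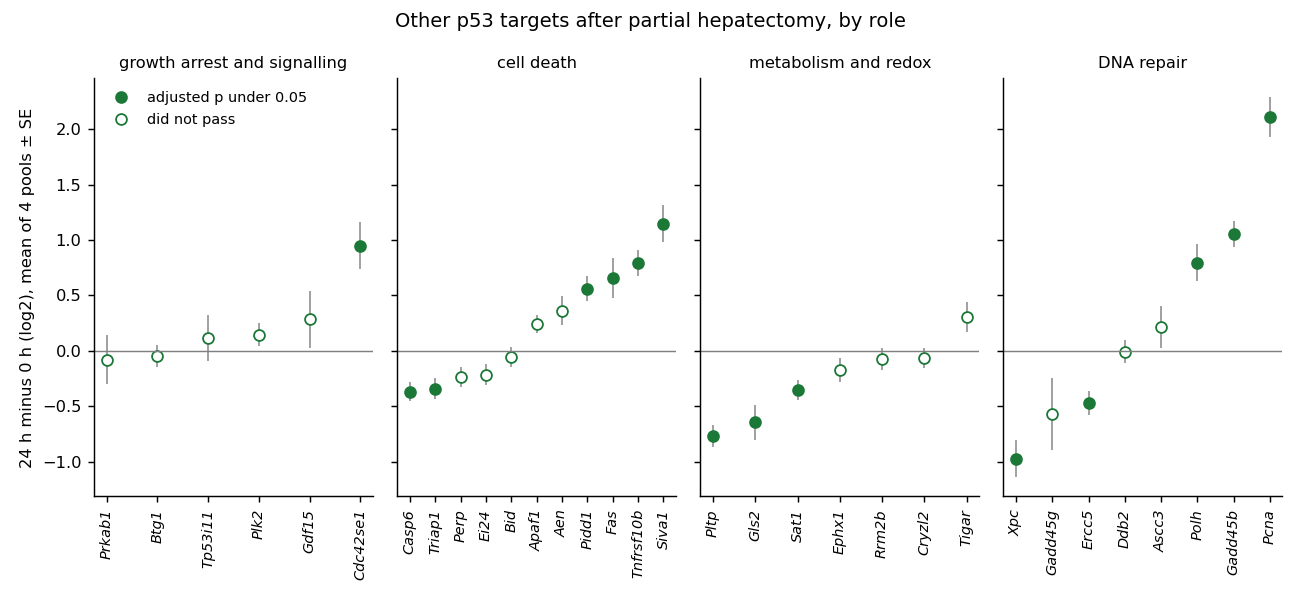
Change after PHx (24 h minus 0 h, log2, mean of 4 pools ± SE, vertical axis) of 32 further p53 targets, in 4 panels by role. Filled points passed an adjusted p of 0.05 and open points did not. Both directions appear in the panels for cell death and DNA repair, with Pcna highest at 2.11 and Xpc lowest at -0.98.

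p53 itself was not analysed here. Of 9 tested genes among its relatives and regulators 3 rose with PHx, where 15.3% of all genes did. They were the checkpoint kinase Chek1 (1.47 ± 0.22, adjusted p = 0.00497), the damage kinase Atm (0.41 ± 0.12) and the acetyltransferase Kat5 (0.33 ± 0.09). The calls of Atm and Kat5 were lost whichever pool was left out, with adjusted p of at least 0.0621. Among 10 cyclins, kinases and PCNA that p21 is known to bind, 8 rose, where 15.3% of all genes did. The largest rises were those of Cdk1 (3.60 ± 0.43), Ccna2 (2.80 ± 0.40), Ccne2 (2.45 ± 0.26) and Pcna. Ccne2 lay under the level minimum on every array at 0 h, and Ccne1 on every one but the pair-fed untreated array. Their means reached the minimum only through the 24 h arrays. The filter thus favoured rises of Ccne1, Ccne2, Cdk1 and Ccna2, so the count of 8 is a description. The PHx calls of Cdk1, Ccna2 and Ccne2 held with no level filter. On the pair-fed arrays at 0 h, where Cdkn1a was lowest, Cdk1 stood at 3.72 and 3.98 and Ccna2 at 3.97 and 4.31, below the level minimum, so the size of their changes is uncertain. The fit called a diet difference in the response to PHx for both genes and a diet difference at 0 h for Cdk1. These calls rest on levels under the minimum, and all 3 were lost whichever pool was left out, with quantile normalization and with no level filter, so no size is given.

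Of 6 genes that control p27 protein turnover 1 was called with PHx, where 28.1% of all genes were: Skp2, the ligase subunit that recognises p27, rose by 0.59 ± 0.14 (adjusted p = 0.0228). That call held without the ethanol-fed AM21 pool and was lost when any other pool was left out. At 0 h Skp2 lay between 4.56 and 4.92, under the level minimum, which its mean of 5.05 reached only through the 24 h arrays. The filter thus favoured a rise of Skp2, and its size is uncertain. FOXO factors, which can also switch on Cdkn1b, Sesn1 and Gadd45a, were listed with their targets. Of these 7 of 13 fell with PHx and none rose, where 12.8% of all genes fell and 15.3% rose. The falls included Txnip (-0.86 ± 0.11), Klf15 (-0.74 ± 0.13), Foxo1 (-0.59 ± 0.16) and Bcl6 (-0.57 ± 0.14). Without a pool the number called fell to 3 for either ethanol-fed pool, and Foxo1 and Bcl6 each lost their call without 3 of the 4 pools. Igfbp1, an insulin-controlled FOXO target, was higher in ethanol-fed liver at 0 h by 2.39 ± 0.34 (adjusted p = 0.0239), with 9.97 and 10.21 against 6.76 and 8.66. Without the pair-fed AM21 array that difference was 1.44 (adjusted p = 0.0724), and it did not pass either without either ethanol-fed array. The call of Igfbp1 was also lost with median-centred arrays, quantile normalization, no level filter and the trended, robust prior variance. Its difference stayed between 2.28 and 2.39 in these fits. Of 8 tested genes of the ATF4 and CHOP stress response, which can raise Gadd45a, 2 fell with PHx, where 12.8% of all genes did. They were Fgf21 (-1.30 ± 0.23) and Ddit4 (-0.45 ± 0.12). At 24 h Ddit4 lay between 4.65 and 5.00, at or under the level minimum, which its mean of 5.07 reached through the 0 h arrays. Fgf21 was under the minimum on both pair-fed arrays at 24 h (4.82 and 4.58), so both sizes are uncertain. The call of Ddit4 was lost without any pool but the pair-fed AM21 one. None differed past the threshold between the diets.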

How the data were processed

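The deposited values are log2 expression levels. The authors made them by RMA with Affymetrix Expression Console, as the submitters' processing notes state without a version. Because RMA equalises the arrays, a change common to most genes is invisible. Of 36685 probe sets, 18511 had 1 gene symbol in the platform table, 575 several and 17599 none, which gave 18166 genes. The probe set with the highest mean stood for a gene.

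Tests were run with limma 3.58.1 (lmFit and eBayes, R 4.3.3), and p-values were adjusted by Benjamini-Hochberg over all 8690 genes, with calls at 0.05. The 4 pool differences served to test PHx (3 residual degrees of freedom). Diet and AM21 were fitted together on the 4 arrays of 1 time, and interactions on the 4 pool differences, each with 1 residual degree of freedom. The pairing of the times rests on the animal numbers in the labels. The scripts were tested on simulated data. Named genes were all members, up to 4 called genes per list and comparison with the largest change, and all tested other CDK inhibitors. The 5 genes most correlated with Cdkn1a were named too, with symbols starting with LOC or RGD or ending in -ps left out. Genes beyond this rule (Casp6, Triap1, Ercc5) are marked in the text. Members and lists were chosen with earlier results of these data known. Alternatives were other normalizations, level filters, prior variances, probe set rules, pooling over times, no block and leaving out each pool.

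Marker sums are the log2 of the summed linear levels. Promoter sequences are from RefSeq (GRCr8), and the array's build was not matched to it.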

Additional observations from a re-analysis of the deposited data

Results flagged for a closer look

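For Gadd45a both ethanol-fed pools were higher at 24 h than at 0 h (1.13 and 0.49), while both pair-fed pools were lower (-0.28 and -0.35), opposite directions that 3.98% of the 8690 genes tested shared. The difference between the responses was 1.13 ± 0.22 in limma and did not pass (adjusted p = 0.0892). At 24 h Gadd45a stood between 6.16 and 6.55 on the 4 arrays, and at 0 h it stood at 5.42 and 5.96 in ethanol-fed liver, against 6.65 and 6.51 in pair-fed liver.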

How the results depend on the processing

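Ccng1, Mdm2 and Sesn1 kept their calls with PHx under every alternative run. Of 438 values of members under alternatives 399 stayed the same, 32 reversed, 5 came to pass and 2 moved. A tested value stayed the same when it kept direction and side of the threshold. An untested value of Cdkn1a did so when it kept direction and shifted by less than the SD of its single differences, and otherwise moved. For AM21 the values are those of Cdkn1a and Tp53inp1 only. At 0 h the trended, robust prior variance called 4 members for diet in place of 0. The 5th to pass was Tp53inp1 with PHx, without the pair-fed AM21 pool.

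Small values turned sign. With arrays centred on their median or quantile normalized, the PHx change of Cdkn1b was -0.037 or -0.022, and the difference in response of Mdm2 between the diets was 0.040 or 0.010. Averaging the diet effect over both times, which mixes 2 different effects, gave 0.96 for Cdkn1a, -0.32 for Gadd45a, 0.20 for Phlda3 and 0.13 for Tp53inp1 in place of the 24 h value, and 0.045 for Cdkn1b, -0.066 for Ccng1 and -0.29 for Cdkn2c in place of the 0 h value. For Cdkn1a at 0 h it gave 0.96 too.

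With each pool left out in turn, the PHx change ran from -0.029 to 0.089 for Cdkn1b and from -0.049 to 0.45 for Gadd45a. The diet difference at 24 h ran from -0.15 to 0.032 for Mdm2, -0.11 to 0.28 for Sesn1 and -0.82 to 0.12 for Tp53inp1. At 0 h it ran from -0.076 to 0.0038 for Cdkn1b, -0.27 to 0.15 for Mdm2 and -0.087 to 0.23 for Cdkn2c. The difference in response between the diets ran from -0.30 to 0.30 for Mdm2. These fits drop the other factor, so diet enters the AM21 values: at 0 h they ran from -0.90 to 1.88 for Cdkn1a and -0.32 to 0.38 for Tp53inp1, and for the response by AM21 from -1.53 to 1.31 and from -0.0073 to 1.30. For AM21 only these genes were followed, Cdkn1a as the subject and Tp53inp1 for its unadjusted p.

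The pool is the replicate block. Without the replicate block the PHx calls were 2702 of all genes in place of 2443, with 3 members called either way, and the response by diet was called for 2 genes in place of 46. Over all alternatives, all-gene calls ran from 1466 to 2702 for PHx, 3 to 369 for diet at 0 h (101 in the main analysis), 0 to 102 for diet at 24 h (0), 0 to 51 for the response by diet (46), 0 to 3 and 0 to 17 for AM21 at 24 h and 0 h (0), and 0 throughout for the response by AM21. The cause of these changes was not tested. With 1 array per condition and 1 residual degree of freedom, diet and AM21 results are limited most.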
